A study of Caenorhabditis elegans with 8 samples.

Results

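Enzymes that remove superoxide and peroxides, or that join glutathione to reactive compounds, were followed in adult Caenorhabditis elegans after RNA interference against spk-1. The genes were the superoxide dismutases sod-1 and sod-2, the catalase ctl-2, the peroxiredoxins prdx-2 and prdx-3 and the glutathione S-transferases gst-1 and gst-10. They were chosen by name, with earlier results of these data known, and each needed at least 1 intron in the authors' table of reads over introns. Ranks and shares among all genes are therefore given for scale only. All 7 were listed, of 5762 genes in that table, and they held 14 of its 20324 introns.

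Superoxide, a by-product of respiration, is converted to hydrogen peroxide by superoxide dismutases, and the peroxide is then broken down by catalases or reduced by peroxiredoxins and glutathione peroxidases. Glutathione S-transferases attach the tripeptide glutathione to electrophiles such as the aldehydes that form when lipids are oxidised. In C. elegans many of these genes are controlled by the transcription factors SKN-1 and DAF-16, and the intestine is a main site of the response.

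The study asked what the SR protein kinase SPK-1 does for splicing in this worm. All libraries came from whole adults of the wild-type strain N2, raised at 20 °C and moved as fourth-stage (L4) larvae to feeding bacteria for 24 h at 25 °C. The 4 control libraries are from worms fed Escherichia coli with the empty L4440 vector, and the 4 spk-1(RNAi) libraries from worms fed bacteria that express spk-1 double-stranded RNA, called RNAi worms here. At least 100 adults were pooled per condition, polyadenylated RNA was used, and strand was marked with dUTP. The labels do not say whether replicates are separate cultures, and p-values therefore cover the spread between libraries, which may be technical.

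Library depth ran from 1821717 to 47299659 junction reads, and replicates 1 and 2 of both groups were the shallow ones. Values are CPM, the counts of a gene scaled to a fixed number of junction reads per library and corrected by TMM, so they describe spliced reads and not total expression. Over all its introns, the targeted gene spk-1 took 0.0464% to 0.0628% of junction reads in controls and 0.614%, 6.25%, 0.178% and 0.277% in RNAi replicates 1 to 4. The introns after exons 6 and 7 hold this excess, and whether reads over them come from the fed double-stranded RNA was not tested. Its 8 other introns, chosen after their values were seen, summed to 311 to 539 CPM in controls and 52.1 to 163 CPM in RNAi worms, lower in 4 of 4 pairs. Pairs are libraries of the same replicate number, and each main value is given also with that number as a block. Every listed intron had at least 21 reads in every control library, so an intron seen mainly after spk-1(RNAi) would not be in the table.

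Among the 7 genes, gst-10 was higher in every RNAi library than in every control library and gst-1 was higher in every pair. The other 5 genes were higher in some pairs and lower in others. In edgeR's quasi-likelihood test with Benjamini-Hochberg adjustment over all genes, 0 of the 7 passed an adjusted p of 0.05, without or with the block. Of all 5762 genes, 0 (0%) passed in either fit. An unadjusted p under 0.05 was found for 1 of the 7 without the block, against 54 of all genes (0.937%), and for 2 of the 7 with the block, against 553 (9.6%). DESeq2's Wald test called 0 of the 7 without the block, where 1 of the 7, gst-10, and 84 of all genes (1.46%) had an unadjusted p under 0.05. With the block it called gst-10, higher in RNAi worms, as 1 of 51 genes in all (0.885%). The median log2 fold change of the 7 was 0.148 without the block, against -0.005 over all genes, and 0.070 with it, against 0.007. The estimate was above 0 for 4 genes without the block and for 6 with it.

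**Figure D1:**
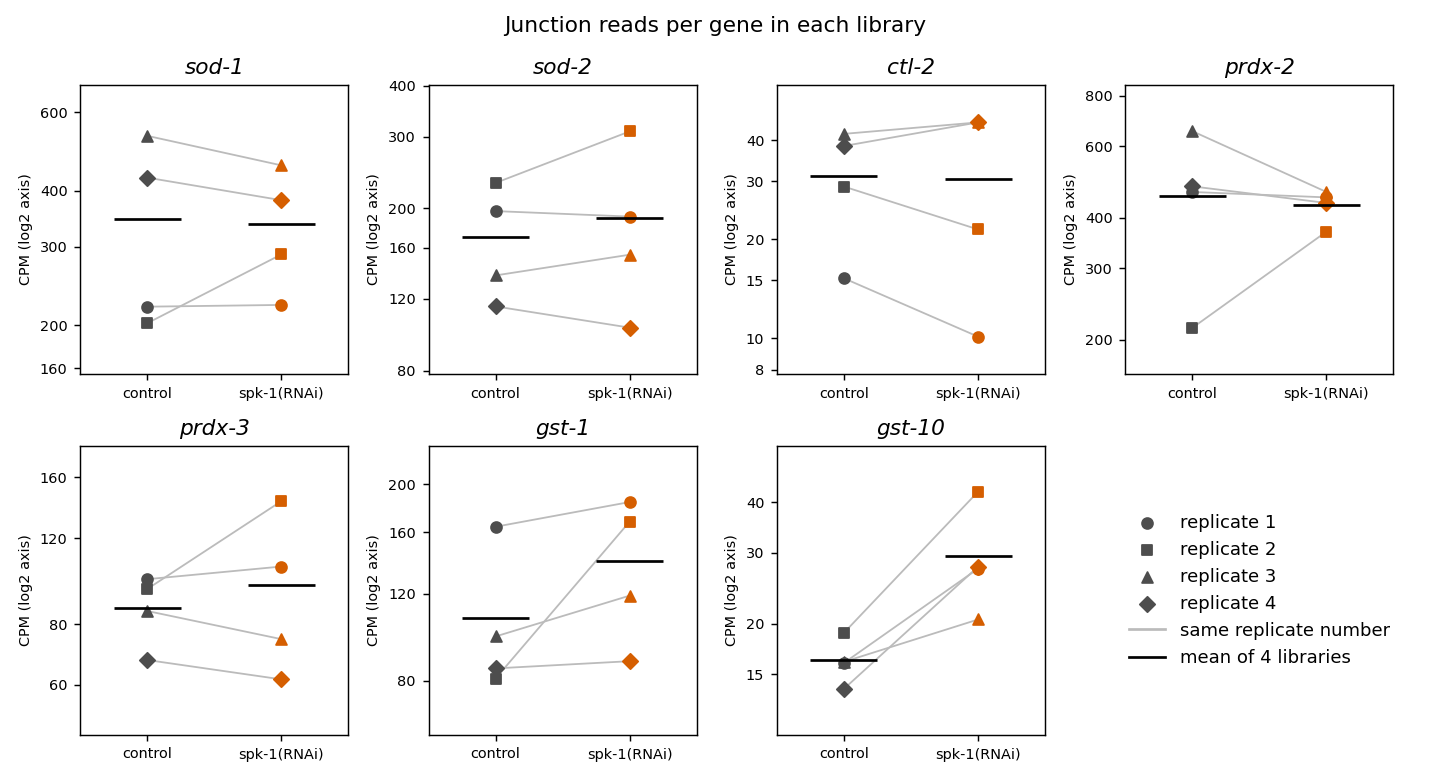
CPM of junction reads (vertical, log2 axis) of the 7 genes in each library, control at left and spk-1(RNAi) at right. Symbols mark the replicate number, grey lines join libraries of the same number and black bars are means of 4 libraries. For gst-10 the control libraries lie between 13.8 and 19 CPM and the spk-1(RNAi) libraries between 20.5 and 42.5 CPM, while the groups of the other 6 genes overlap.

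The glutathione S-transferase gene gst-10 had the highest estimate of the 7. Its product is known to conjugate 4-hydroxynonenal, an aldehyde from oxidised lipids. The gene (Y45G12C.2, chromosome V) has 2 annotated introns, and the listed one lies after exon 1, between coding exons, at 2561742 to 2561790 of the ce10 build. Junction reads over it were 16, 19, 16.1 and 13.8 CPM in control replicates 1 to 4. After spk-1(RNAi) they were 27.4, 42.5, 20.5 and 27.7 CPM. Every spk-1(RNAi) library lay above every control library, as for 27 of all genes (0.469%), and replicate 2 was the highest library of each group. The opposite order was found for 0 of the 7 genes and for 33 of all genes (0.573%). The means were 16.2 ± 2.11 and 29.5 ± 9.26 CPM (SD, n = 4), a ratio of 1.82.

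The log2 fold change of gst-10 was 0.86 (SE 0.29, 95% interval 0.23 to 1.5, adjusted p = 1.0 in edgeR). By its unadjusted p of 0.013 it ranked 10 among the 5762 genes of edgeR's test, and 48 with the block, and by log2 fold change it ranked 18 and 21. With the replicate block it was 0.80 (SE 0.20, 95% interval 0.36 to 1.24, adjusted p = 0.24 in edgeR, adjusted p = 0.0325 in DESeq2). Within pairs the log2 ratio of spk-1(RNAi) to control was 0.78, 1.16, 0.36 and 1.0, so gst-10 was higher in 4 of 4 pairs, as were 555 of all genes (9.63%), and 0 of the 7 genes was lower in all pairs, against 550 (9.55%). The value rests on few reads in the shallow libraries, 42 in control replicate 2 and 115 in spk-1(RNAi) replicate 2, but 630 and 354 in the deep controls against 730 and 742. In whole worms, more cells of a type and more RNA per cell cannot be told apart.

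Marker genes of tissues were summed beside it. Body-wall muscle markers (6 of 8 measured) summed to 2335 to 7848 CPM in controls and 3389 to 8199 CPM in RNAi worms, higher in 4 of 4 pairs. Hypodermal markers (3 of 8 measured) summed to 153 to 547 and 205 to 848 CPM, and neuronal markers (2 of 7 measured) to 49.2 to 121 and 64.3 to 137 CPM, both higher in 4 of 4 pairs. Intestinal markers (5 of 8 measured) summed to 20043 to 41889 and 24433 to 41704 CPM, higher in 2 of 4 pairs. Germline markers (8 of 8 measured) summed to 2875 to 4435 and 2819 to 4152 CPM, higher in 0 of 4 pairs, and 0 of 7 sperm markers were listed. The part of tissue content in the gst-10 values was not tested.

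A further limit on gst-10 is a gene with a matching first intron. The gene F56A4.3, also on chromosome V, has a listed intron of 49 nt (2453463 to 2453511), the same length as that of gst-10. In the WBcel235 annotation the coding parts of the exons on either side also have equal lengths in both genes, 37 and 195 nt, while those of exon 3 differ (398 and 83 nt). Genes beside them match in length as well, at 1242 nt for Y45G12C.3 and F56A4.4 and at 2943 nt for Y45G12C.12 and F56A4.7. Reads over the F56A4.3 intron were 132, 42, 546 and 302 in controls and 127, 107, 656 and 696 in RNAi worms, against 144, 42, 630 and 354, and 136, 115, 730 and 742, for gst-10. The counts differed by at most 14.7% in any library. Among all introns, that of F56A4.3 was the closest found to the gst-10 intron. The same search was made for the other listed introns of the chosen genes. An intron of an unrelated gene came this close to an intron of gst-1 (cri-3, 5.93% at most) and to an intron of prdx-3 (ndub-10, 13.7%). For the remaining introns, apart from that of ctl-2, the largest difference from the closest intron was 16.4% to 37.3%.

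Whether the same reads were counted for both introns was not tested, since the reads are not used here. In the authors' deposited exon-bin table the mean signal was 19.53 to 461.5 over the 3 bins of gst-10 and 0 to 1.168 over the 3 bins of F56A4.3. F56A4.3 had 14.8 ± 3.01 CPM in controls and 27.4 ± 8.81 CPM in RNAi worms (SD, n = 4), with an estimate of 0.89 on the log2 scale. Unlike those of gst-10, its groups overlapped, with controls up to 19 CPM and RNAi worms from 18.5 CPM. With the block its adjusted p was 0.0259 in DESeq2, so the 51 genes called there include both F56A4.3 and gst-10. Summed with F56A4.3, gst-10 had a log2 fold change of 0.88 (adjusted p = 1.0 in edgeR), an alternative chosen after seeing the data. Shared reads would enter this sum for each gene, and both estimates were alike, so the sum cannot show the effect of sharing. The level of gst-10 is uncertain to the extent that reads are shared.

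**Figure D2:**
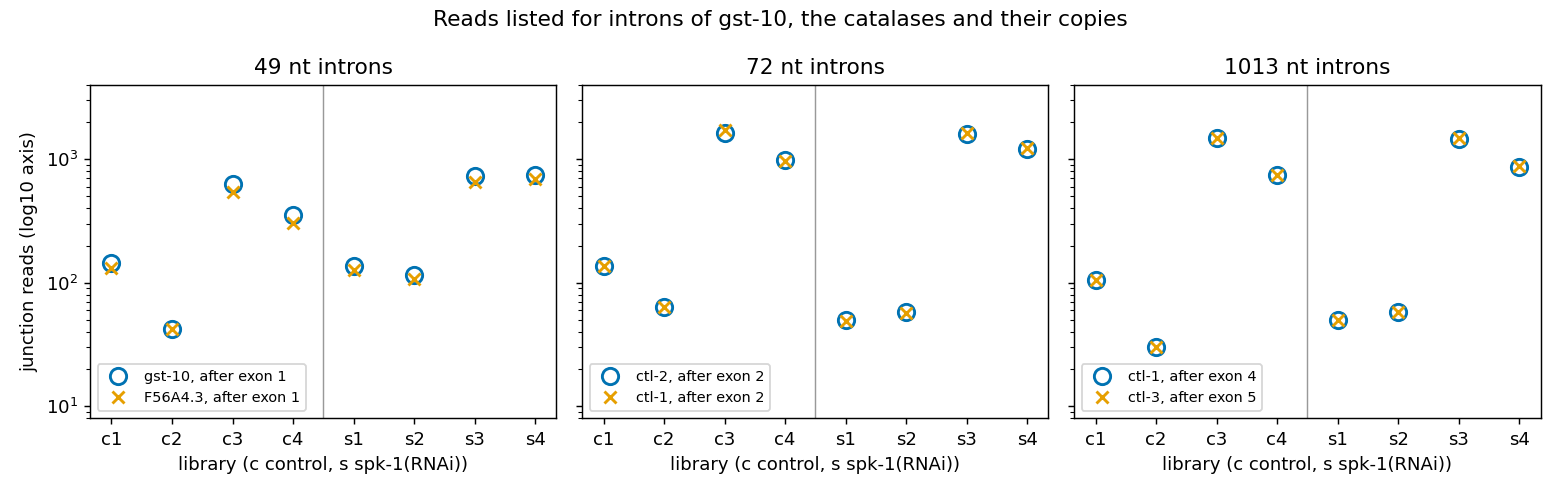
Reads (log10 axis) over introns of equal length in 3 pairs of genes, in control (c) and spk-1(RNAi) (s) libraries 1 to 4, with circles for the first gene and crosses for the second. The 49 nt introns of gst-10 and F56A4.3 differ by at most 14.7%, the 72 nt introns of ctl-2 and ctl-1 by at most 4.21%, and the 1013 nt introns of ctl-1 and ctl-3 by at most 2.21%.

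The second transferase, gst-1, belongs to the pi class. It (R107.7, chromosome III) had both of its annotated introns listed. Its values were 164, 80.9, 98.4 and 84.8 CPM in control replicates 1 to 4 and 184, 168, 119 and 87.7 CPM in RNAi worms. The groups overlapped, because control replicate 1 lay above spk-1(RNAi) replicates 3 and 4. Means were 107 ± 38.6 and 139.6 ± 44.5 CPM (SD, n = 4), and the log2 fold change was 0.38 (SE 0.31, 95% interval -0.30 to 1.06, adjusted p = 1.0 in edgeR). Each pair was higher after spk-1(RNAi), at log2 ratios of 0.17, 1.05, 0.27 and 0.05, and pair 2 stood far above the others. With the block the estimate was 0.36 (SE 0.15, 95% interval 0.02 to 0.69, adjusted p = 0.504 in edgeR), and without pair 2 it was 0.16.

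Its introns were alike in estimate. The intron after exon 1 (9059415 to 9059468) had an estimate of 0.45 (SE 0.47) and the one after exon 2 (9059557 to 9059604) of 0.35 (SE 0.34). Neither passed the test.

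The superoxide dismutases act in different compartments. The cytosolic copper/zinc enzyme is made by sod-1 (C15F1.7, chromosome II), with 4 of 4 annotated introns listed. It had 220.0, 202, 531 and 428 CPM in controls and 222, 288, 456 and 381 CPM in RNAi worms. Replicates 1 and 2 were low and replicates 3 and 4 high in both groups, and the groups overlapped throughout. The means were 345 ± 161 and 337 ± 103 CPM (SD, n = 4), with a log2 fold change of -0.04 (SE 0.36, 95% interval -0.84 to 0.77). The block narrowed this to 0.02 (SE 0.13, 95% interval -0.27 to 0.32).

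The mitochondrial manganese enzyme is made by sod-2 (F10D11.1, chromosome I), with 3 of 4 annotated introns listed. It had 197, 231, 137 and 115 CPM in controls and 191, 309, 154 and 102 CPM in RNAi worms. Its order over the replicates was the opposite of that of sod-1, high in replicates 1 and 2 and low in replicates 3 and 4, and again the groups overlapped. The log2 fold change was 0.15 (SE 0.35, 95% interval -0.62 to 0.93), or 0.09 with the block (SE 0.12, 95% interval -0.17 to 0.35). Of the other dismutase genes, sod-3 had 0 introns in the table and was not analysed here, nor were sod-4 and sod-5.

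The catalase gene ctl-2 codes for the peroxisomal enzyme and had the widest interval of the 7 without the block. Only the intron after exon 2, of 3 annotated introns, was listed (Y54G11A.5, chromosome II, 14301819 to 14301890). Reads were 15.2, 28.9, 41.8 and 38.4 CPM in controls and 10.1, 21.4, 45.3 and 45.3 CPM in RNAi worms, with both deep replicates above both shallow ones in each group. The log2 fold change was -0.02 (SE 0.48, 95% interval -1.09 to 1.06), or -0.11 with the block (SE 0.19, 95% interval -0.53 to 0.31). Pairs 1 and 2 were lower after spk-1(RNAi) and pairs 3 and 4 higher, at log2 ratios of -0.59, -0.43, 0.12 and 0.24. The lowest library held 50 reads.

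Catalase genes lie side by side in C. elegans and share sequence, and their counts here were close to equal. The listed intron of ctl-2 and the intron after exon 2 of ctl-1, the cytosolic catalase gene, are both 72 nt long, and their reads differed by at most 1 in 4 of 8 libraries and by at most 4.21% in any. The 1013 nt introns of ctl-1 and ctl-3 had the same count in 5 of 8 libraries and differed by at most 2.21%. In the authors' deposited exon-bin table the mean signal per bin was 0 to 422 for ctl-2, 2.044 to 80.96 for ctl-1 and 2.769 to 397.3 for ctl-3. Whether the junction values of ctl-2 hold reads of ctl-1 was not tested. With the 3 genes summed, the log2 fold change was 0.11, an alternative chosen after seeing the data. Shared reads would enter this sum for each gene, so it cannot show the effect of sharing.

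The peroxiredoxins reduce peroxides with the help of thioredoxin. The cytosolic peroxiredoxin gene prdx-2 (F09E5.15, chromosome II) had 463, 214, 654 and 478 CPM in controls over its single listed intron (5379201 to 5379264, of 3 annotated). After spk-1(RNAi) it had 449, 369.7, 463 and 435 CPM. The spk-1(RNAi) libraries all lay inside the control range, with control replicate 2 the lowest and control replicate 3 the highest of the 8. Means were 452 ± 181 and 429 ± 41.2 CPM (SD, n = 4), with a log2 fold change of -0.08 (SE 0.31, 95% interval -0.77 to 0.62), or 0.01 with the block (SE 0.18, 95% interval -0.38 to 0.40). Pair 2 was higher and the 3 other pairs lower after spk-1(RNAi), at 0.79 against -0.05, -0.50 and -0.14.

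The mitochondrial peroxiredoxin gene prdx-3 (R07E5.2, chromosome III) had both annotated introns listed. It had 98.9, 94.4, 85.1 and 67.5 CPM in controls and 105, 143, 74.5 and 61.6 CPM in RNAi worms. The groups overlapped, and spk-1(RNAi) held both the highest and the lowest library. The log2 fold change was 0.15 (SE 0.28, 95% interval -0.47 to 0.77), or 0.07 with the block (SE 0.14, 95% interval -0.24 to 0.38).

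**Figure D3:**
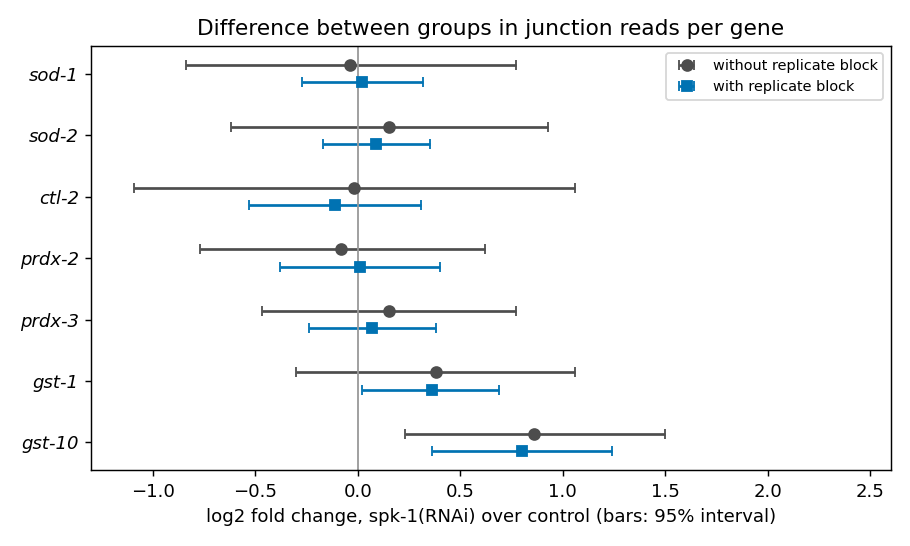
Log2 fold change of spk-1(RNAi) over control for each of the 7 genes, with 95% intervals from edgeR, without the replicate block (grey circles) and with it (blue squares). The intervals of gst-10 lie above 0 in both fits, those of gst-1 only with the block, and those of the other 5 genes span 0.

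For each of the 5 genes other than the transferases, the 95% interval spans 0 in both fits, and a change inside a gene's own interval is compatible with its data. In simulated data of the same genes and depths, 24% of genes changed by 1 on the log2 scale were recovered without the block and 95% with it. Each simulation used the spread fitted in its own design and held 100 genes changed by 1 and 100 changed by 2. The real fits called 0 genes, so these shares do not give the power of the tests for the 5 genes.

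The 7 genes differed widely in level. Per listed intron, the mean over the 8 libraries was 441 CPM for prdx-2, above 97.5% of all genes. It was followed by sod-1 at 85.3 CPM, gst-1 at 61.6 CPM, sod-2 at 59.9 CPM, prdx-3 at 45.7 CPM, ctl-2 at 30.8 CPM and gst-10 at 22.9 CPM, the last above 54% of all genes. Neighbours in this order were kept apart in 8 of 8 libraries for prdx-2 over sod-1 and for sod-2 over prdx-3. The others exchanged places, with the higher gene above the next in 5 of 8 libraries for sod-1 over gst-1, 6 of 8 for gst-1 over sod-2, and 5 of 8 for both prdx-3 over ctl-2 and ctl-2 over gst-10. These means cover listed introns only, 1 of 3 annotated for prdx-2 and ctl-2 and 1 of 2 for gst-10, but 4 of 4 for sod-1. Whether the levels of gst-10 and ctl-2 hold reads of F56A4.3 and ctl-1 was not tested.

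Replicate sets separated 4 of the 7 genes, in opposite directions. For sod-1 the 4 libraries of replicates 3 and 4 (381 to 531 CPM) all lay above those of replicates 1 and 2 (202 to 288 CPM), and for ctl-2 they did so too (38.4 to 45.3 against 10.1 to 28.9 CPM). For sod-2 the same 4 libraries lay below (102 to 154 against 191 to 309 CPM), as they did for prdx-3 (61.6 to 85.1 against 94.4 to 143 CPM). Of all genes, 1446 (25.1%) lay above and 1260 (21.9%) below in this way, so 2 of 7 each way is near the background. Muscle, intestinal and neuronal markers followed the same sets. Muscle markers summed to 2335 to 5118 CPM in replicates 1 and 2 and 7479 to 8199 CPM in replicates 3 and 4, and intestinal markers to 20043 to 25579 and 35102 to 41889 CPM. Neuronal markers summed to 49.2 to 92.9 and 111 to 137 CPM. Their part in these values was not tested.

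Splicing within the genes was compared next, since the study is about splicing. Of the 14 introns, 0 passed an adjusted p of 0.05 in edgeR's test over all introns, without or with the block, against 0 (0%) and 14 (0.0689%) of 20324. An unadjusted p under 0.05 was found for 1 intron, that of gst-10, in both fits, against 173 (0.851%) and 1708 (8.4%) of all introns. Use of an intron relative to the others of its gene could be tested in sod-1, sod-2, prdx-3 and gst-1, and 0 of these 4 were called (gene-level adjusted p = 1.0 without the block and 0.989 with it, diffSpliceDGE of edgeR). Among the 4370 genes tested this way, 1 (0.0229%) was called without the block and 3 (0.0686%) with it, and the unadjusted p was under 0.05 for 10 (0.229%) and 249 (5.7%), but for 0 of the 4. Of their 11 introns, 0 were called for use in either fit, against 0.0426% and 0.0533% of all introns tested.

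The 331 nt intron after exon 1 of sod-1 (6973460 to 6973790) had the lowest estimate of the 14, at 17 ± 8.81 CPM in controls and 12.4 ± 6.39 CPM in RNAi worms (SD, n = 4). Its log2 fold change was -0.47 (SE 0.49, adjusted p = 1.0 in edgeR), or -0.46 with the block (SE 0.23, adjusted p = 0.624 in edgeR). The 3 shorter introns of sod-1, of 43 to 44 nt, had estimates of -0.10, 0.04 and -0.01. In prdx-3 the share of the gene's junction reads over the intron after exon 1 was 49.9%, 30.1%, 53.1% and 49.2% in controls and 56.8%, 35.6%, 58.5% and 56.7% in RNAi worms. The RNAi library was thus the higher of each pair, and how many of all introns do so was not counted. The groups overlapped through replicate 2. Use of this intron did not pass the test (adjusted p = 1.0 in edgeR, without or with the block). Its unadjusted p in diffSpliceDGE was 0.809 without the block and 0.423 with it.

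In 3 of these genes replicate 2 stood apart from the other replicates in both groups. In sod-2 the intron after exon 1 held 69.9% of the gene's junction reads in control replicate 2 (95% exact binomial interval 65.7% to 73.8%) and 60.4% in spk-1(RNAi) replicate 2 (56.9% to 63.7%). The other 6 libraries held 20.6% to 31.1%. The share over the intron after exon 2 was 9.39% and 11.5% in replicate 2, against 27.7% to 43.2% elsewhere. These intervals cover counting error only, since reads are not independent molecules. In sod-1 the long first intron held 11.2% and 6.79% in replicate 2, against 2.45% to 4.58%. The intron after exon 2 of sod-1 followed the replicate sets instead, with 44.2% to 56.5% in replicates 1 and 2 and 21.6% to 27.9% in replicates 3 and 4. In gst-1 the first intron also followed the sets, with 36.3% to 48.4% in replicates 1 and 2 and 26.2% to 32.7% in replicates 3 and 4.

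**Figure D4:**
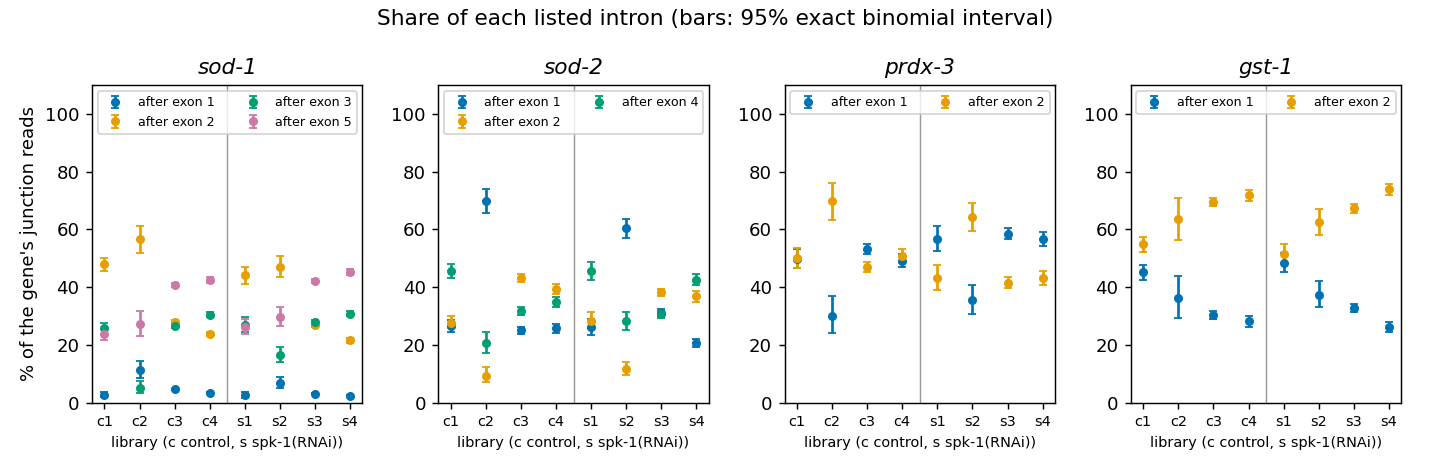
Percent of a gene's junction reads over each listed intron in control (c) and spk-1(RNAi) (s) libraries 1 to 4, for the 4 genes with more than 1 listed intron, with 95% exact binomial intervals as bars. Replicate 2 of both groups stands apart in sod-2 (69.9% and 60.4% over the intron after exon 1, against 20.6% to 31.1%) and in prdx-3 (30.1% and 35.6%, against 49.2% to 58.5%).

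The authors' own tables were read for the same genes. In the authors' deposited exon-bin table, 36 of 40 bins of the 7 genes carry a DEXSeq p-value, from 0.235 to 0.993, and the adjusted p is 1 for all of them. In the authors' deposited shorter junction table, of 258 introns with p under 0.01, 0 introns of the 7 genes appear. In the authors' deposited longer junction table the p-value was 0.0143 for the intron of gst-10, the lowest of the 14, and up to 0.927 for the others.

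Other genes of the pathway were counted from lists of antioxidant, thioredoxin and glutathione genes, their regulators and related metabolism. Of 114 listed genes 50 were measured, or 43 of 107 without the 7. Among the 43, edgeR called 0 without or with the block. Its unadjusted p was under 0.05 for 1 gene without the block, against 0.937% of all genes, and for 6 with it, 5 higher and 1 lower, against 9.6%. The blocked Wald test of DESeq2 called 1, gpx-5, against 0.885%. The estimate was above 0 for 29 of the 43 (median log2 fold change 0.10), and for 26 with the block (median 0.06), against 49% and 51.2% of all genes. Coverage was uneven, with 9 of 49 glutathione S-transferases and 2 of 8 glutathione peroxidases measured but 8 of 8 genes of glutathione synthesis and reduction.

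Glutathione peroxidases had the highest list median, 0.56, from 2 genes. For gpx-5 the values were 39.5, 42.9, 26.1 and 28.3 CPM in controls and 59.3, 89.8, 50.4 and 33.6 CPM in RNAi worms. The groups overlapped only through spk-1(RNAi) replicate 4, and the gene was higher in 4 of 4 pairs. Means were 34.2 ± 8.26 and 58.3 ± 23.6 CPM (SD, n = 4), and the log2 fold change was 0.77 (SE 0.32, adjusted p = 1.0 in edgeR), or 0.70 with the block (SE 0.17, adjusted p = 0.221 in edgeR, adjusted p = 0.0301 in DESeq2). The related gpx-2 had 88.1 ± 8.9 and 112 ± 25.8 CPM (SD, n = 4), also higher in 4 of 4 pairs.

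Among the 9 measured transferases, 7 had an estimate above 0 (median 0.15), and 0 were called by edgeR in either fit. With the block, edgeR's unadjusted p was under 0.05 for 3 of the 9, against 9.6% of all genes. Besides gst-10 and gst-1 this was gst-42, the zeta-class transferase that acts as maleylacetoacetate isomerase (adjusted p = 0.513 in edgeR). It had 10.7 ± 3.81 and 16.4 ± 5.07 CPM (SD, n = 4) and was higher in 3 of 4 pairs. Control replicate 2 held 26 reads, and spk-1(RNAi) replicate 3 stood at 23.1 CPM against 10.9 to 16.6 CPM in the other RNAi libraries. The lowest estimate was that of gst-43, at 18 ± 12.5 and 13.5 ± 3.31 CPM, where control replicate 2 alone stood at 36.6 CPM. The mitochondrial thioredoxin gene trx-2 had 36 ± 9.51 and 55.3 ± 29.6 CPM, with spk-1(RNAi) replicate 3 at 99.1 CPM far above the rest. The cystathionine gamma-lyase gene cth-2, which supplies cysteine for glutathione, had 115 ± 59 and 150.1 ± 87.8 CPM (SD, n = 4 for each).

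Among regulators of the oxidative stress response, 10 of 12 were measured, 5 with an estimate above 0 (median -0.01), and 0 were called. The kinase genes nsy-1, which acts upstream of the p38 kinase PMK-1, and hpk-1 had the lowest estimates without the block, -0.59 (SE 0.72) and -0.36 (SE 0.39), or -0.27 (SE 0.42) and -0.29 (SE 0.25) with it. In nsy-1 the levels were 4.23 ± 3.75 and 2.71 ± 1.31 CPM and in hpk-1 18.3 ± 9.28 and 14.1 ± 4 CPM (SD, n = 4 for each), with control replicate 2 the highest library of both genes. The single listed intron of nsy-1 had 21 reads in control replicate 2, the lowest count of any listed intron in a control library. A gene this low was thus listed only where that control was high, so its estimate is no evidence of a decrease. With the block the lowest was daf-2, the insulin/IGF receptor gene that restrains DAF-16, named after its values were seen. It had 173 ± 35.5 CPM in controls and 139 ± 50.5 CPM in RNAi worms (SD, n = 4), lower in 4 of 4 pairs, at -0.34 with the block (SE 0.15, adjusted p = 0.513 in edgeR).

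**Figure D5:**
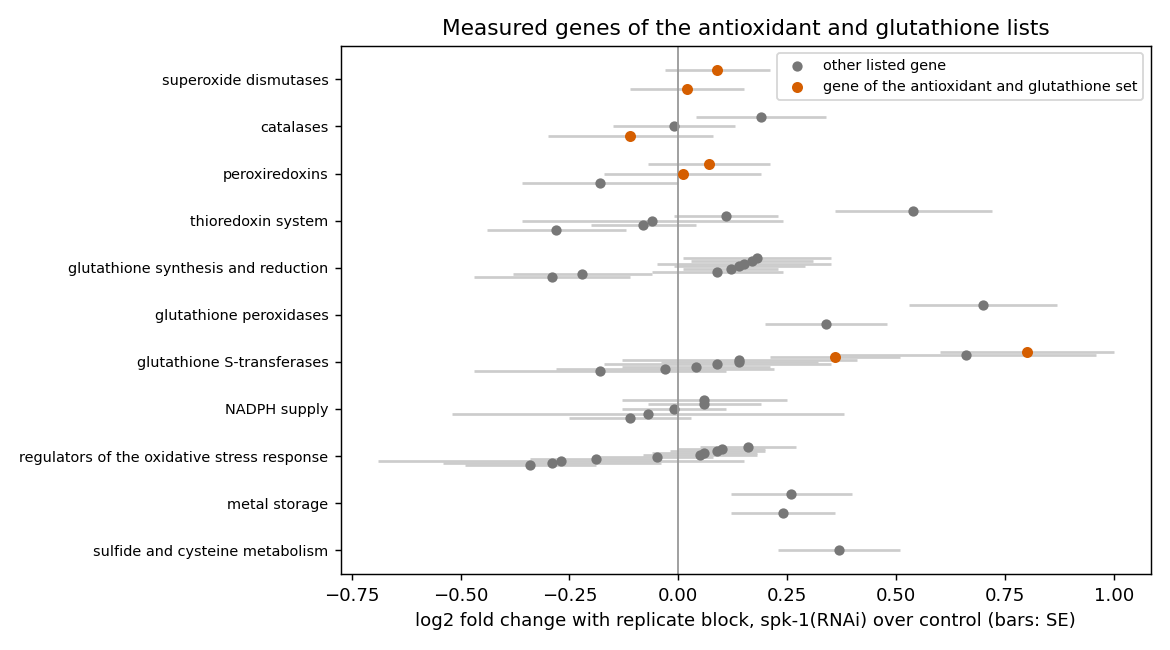
Log2 fold change of spk-1(RNAi) over control with the replicate block, from edgeR, for each measured gene of the pathway lists, with bars of 1 SE and the 7 genes in orange. The highest points are gst-10 at 0.80, gpx-5 at 0.70 and gst-42 at 0.66, and the superoxide dismutases, catalases and peroxiredoxins lie between -0.18 and 0.19.

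For each of the 7 genes, the other genes with the most similar profile over the 8 libraries were found by the root mean square difference of log2 CPM centred on each gene's mean. Nearest to sod-1 were mev-1, a cytochrome b subunit of succinate dehydrogenase, at 0.068 and R05H5.3 at 0.080. The nearest to prdx-2 was the ribosomal protein gene rpl-10L at 0.076, followed by Y56A3A.22 at 0.103. For sod-2 they were ndub-10 at 0.115 and mmab-1 at 0.145, and for prdx-3 ndab-2 at 0.099 and M28.10 at 0.103. For gst-1 they were the omega-3 desaturase gene fat-1 at 0.109 and arv-1 at 0.119. The catalase ctl-2 was nearest to ctl-1 at 0.137 and T04B8.5 at 0.155, and gst-10 to F56A4.3 at 0.067 and, much farther off, F55B11.2 at 0.214. Listed introns of ctl-2 and ctl-1, and of gst-10 and F56A4.3, had close counts. Whether shared reads make these profiles alike was not tested. The median distance to all genes was 0.52 to 0.83.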

How the data were processed

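Libraries were grouped by their labels. Per the file headers, the authors' junction table holds read counts over introns, not normalized. TopHat 1.4.1, Bowtie2 2.0.0 and the build ce10 are named in the submitters' processing notes, and the counter is not given in the sources used here. For exon bins, the authors deposited DEXSeq p-values beside a mean normalized signal over all libraries. No column of reads was left unused (0 columns). A heading stands over 2 columns of spk-1(RNAi), whose numbers 1 and 4 were taken from the authors' ratios (100.0% of introns equal in the digits printed, against at most 2.37% for other columns). Of 20349 introns, 25 had a second copy, and 1 copy of each was kept. Gene names matched for 5707 of 5762 sequence names. The sequence name first given for sod-1 is in neither the table nor the annotation, so the annotated one, C15F1.7, was used. Of 20026 intron lengths compared with WBcel235, 99.0% matched with starts counted from 0, and printed coordinates are ce10, counted from 1.

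Junction reads were summed per gene and tested with edgeR 4.0.16 (glmQLFTest, TMM, filterByExpr, which removed 0 genes) in R 4.3.3, with Benjamini-Hochberg adjustment at 0.05, introns in the same way and intron use with diffSpliceDGE. DESeq2 1.42.0, other scalings, no filter, subsets of libraries and the replicate block were alternatives. Libraries were paired by replicate number. Deviations from group means correlated at 0.685 to 0.88 within each numbered pair, all over 0.1. Across numbers they ran from -0.712 to 0.697, highest between replicates 3 and 4, so the correlations also show the sets 1 and 2 against 3 and 4. Total junction reads of 1821717 to 47299659 set the precision. The code was tested on simulated data with changed genes of known size. Antisense and overlapping genes could share reads, since use of strand in the counting is not given in the sources used here.

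The 7 genes, the lists and the markers were chosen with earlier results of these data known. Named were all 7 genes, the 8 other listed genes with the largest absolute log2 fold change without the block, any listed gene called by edgeR, and the 2 nearest genes of each of the 7 by profile. The genes ctl-3, cri-3 and daf-2 were named after their values were seen.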

Additional observations from a re-analysis of the deposited data

Results flagged for a closer look

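Of 46 groups of 4 libraries compared, 6 had a library far from the other 3. Chance gives about 1 in 20 where groups are independent, which shares within a gene are not. All 6 are shares of a gene's junction reads over an intron, and all are libraries of replicate 2. Over the prdx-3 intron after exon 1, control replicate 2 held 30.1% against 49.2% to 53.1% in the other controls, and spk-1(RNAi) replicate 2 held 35.6% against 56.7% to 58.5%. The intron after exon 2 gives the complements, 69.9% against 46.9% to 50.8% and 64.4% against 41.5% to 43.3%. Over the sod-2 intron after exon 1, control replicate 2 held 69.9% against 25.1% to 26.6%. Over the sod-1 intron after exon 1, spk-1(RNAi) replicate 2 held 6.79% against 2.45% to 3.11%. Replicate 2 was the shallowest pair, with 1821717 junction reads in its control library. The part of depth in these shares was not tested. At the level of whole genes, 0 of 14 groups had such a library.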

How the results depend on the processing

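Over 23 alternatives the log2 fold change of gst-10 stayed between 0.65 and 1.01 (unadjusted p of 0.000242 to 0.0625) and that of gst-1 between 0.16 and 0.66 (0.012 to 0.518), with 0 reversals. The other genes turned sign in 2 to 10 alternatives. Genes called in all were 51 with DESeq2 and the replicate block, 7 in replicates 3 and 4 alone and 17 in replicates 2 and 3 alone with the block, and 1 of the 7 genes, gst-10, was called in the first. The replicate block gave 14 introns and 3 genes by intron use, against 0 and 1 without it, and DESeq2 gave 6 introns. Introns called by use were 8 without the block and 10 with it, and it changed no edgeR call among the 7 genes or their introns. Without each library in turn, 0 genes, 0 introns, 1 gene by intron use and 0 of the 7 genes were called. Without each pair in turn, with the block, 0 to 7 genes (7 without pair 2 and 5 without pair 1) and 0 of the 7 were called. The reversed log2 fold changes were 0.0236 for sod-1 and 0.0104 for prdx-2 with the replicate block, 0.0261 and 0.0171 with DESeq2 and the block, and 0.136 and 0.1321 in replicates 2 and 3 alone with the block. In replicates 3 and 4 alone they were 0.1676 for ctl-2 and -0.174 for prdx-3, and ctl-2 with the 3 catalase genes summed, an alternative chosen after seeing the data, gave 0.1122. With the block and without a pair they were 0.0299 (pair 1), 0.1039 (pair 3) and 0.0918 (pair 4) for sod-1, 0.0342, 0.1814 and 0.0656 for prdx-2 without the same pairs, 0.018 for ctl-2 without pair 1, and -0.0116 for sod-2 and -0.0849 for prdx-3 without pair 2. Leaving out single libraries gave -0.2213 to 0.2491 for sod-1, -0.1792 to 0.361 for sod-2, -0.2684 to 0.272 for ctl-2, -0.3092 to 0.1545 for prdx-2 and -0.1039 to 0.3127 for prdx-3. The cause of these reversals was not tested. Depth limits the shallow libraries most, with 42 reads for gst-10 and 50 for ctl-2 at the lowest.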
